A study of Drosophila melanogaster with 24 samples.

Results

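The genes described here are 8 regulators of the Toll and Imd pathways, the NF-kappaB routes of innate immunity in Drosophila. They were taken by name: the transcription factors Dif, dl (dorsal) and Rel (Relish), the inhibitors cact (cactus) and pirk, the peptidoglycan recognition genes PGRP-LB and PGRP-SB1, and the serpin gene nec (necrotic). Every probe set annotated to 1 of them was used, which gave 10 probe sets of the 18769 tested, and 8 of the 11982 genes that those stood for. The genes dl and cact had 2 probe sets each, and the one with the lower mean is called the second. No member was measured by a probe set that names several genes. The gene dl is written in lower case throughout, and Dl in a mix name stands for the cell line that carries Delta.

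The study mixed S2 cells, a phagocytic, blood-cell-like line of Drosophila melanogaster, with other S2 populations for 45 minutes and measured RNA on 24 single-colour arrays. The populations were plain S2 cells, cells with Delta (S2-Dl), cells with Delta lacking its intracellular domain (S2-DlDI), and cells with NFull or NDCterm, read here as forms of the receptor Notch since neither name is explained in the labels. The labels state no promoter, clone or inducing agent for any line, and RNA of both populations of a mix was extracted together. The 8 mixes were analysed with 15 samples, each a pool of 2 independent samples per the series' design text. The control S2/S2, which holds no Delta or Notch line, had 3 samples, and so did S2/S2-Dl. S2/S2-DlDI had 2, as had both NDCterm mixes (S2/S2-NDCterm, without a ligand line, and S2-NDCterm/S2-Dl). The NFull mixes (S2-NFull/S2, the same with S2-Dl and the same with S2-DlDI) had 1 sample apiece, the last of them averaged from a pair of arrays. Nothing states that the pools came from separate cultures, so p-values measure only the spread between these pools. The labels name no immune stimulus in any mix.

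In the Toll pathway, the cleaved ligand Spätzle binds the receptor Toll, and the signal destroys Cactus, the IkappaB protein that holds Dorsal and Dif in the cytoplasm. Both factors then enter the nucleus and switch on targets such as antifungal peptide genes, and Dorsal also patterns the dorsoventral axis of the embryo. In the Imd pathway, receptors of the PGRP family sense bacterial peptidoglycan, and Relish is cut so that its DNA-binding part reaches the nucleus. Relish targets include antibacterial peptide genes and brakes on the pathway itself, among them pirk, whose product interferes with the receptor and the Imd protein, and PGRP-LB, an amidase that digests peptidoglycan.

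Some arrays stood apart or went against their labels. There were 5 titles with a pair of arrays each, and only the pair titled S2-NFull/S2-DlDI replicate 2 was alike enough to average as 1 sample, so 8 arrays were left out of the tests. Delta was at 12295 and 11031 on 2 of these (titled S2-NFull/S2-DlDI, the first array of replicates 1 and 3) and at 13.9 on another (titled S2-NDCterm/S2-Dl, the second array of replicate 2), each against its label. The Delta probe set read 11.9 and 15.3 in S2/S2-DlDI, no higher than the 20.4 to 41.3 of S2/S2. It thus gave no signal for the truncated line, whose Delta expression cannot be read from it. Trimmed array means were 150.004 to 150.005, and medians were 9.82 to 20.9, the highest in S2/S2 replicate 2. In S2/S2, 12 plasmatocyte markers had a median signal of 255, with 8 of them above 100. The lowest of the 12 were Hml at 8.79 and Sr-CI at 1.74, and the highest was ush at 1070. The 10 epidermis markers had a median of 7.89 with 0 above 100. Levels of different probe sets cannot be compared, so these values do not rank the lists. The source field names epidermal tissue of late embryos.

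No regulator passed the test in any of the 11 comparisons that the design implies. Rel, pirk and dl instead differed strongly among samples of one and the same mix, most of all among the S2/S2 controls. Within S2/S2, pirk ran from 109.8 to 1782, Rel from 1036 to 3635 and dl from 191 to 486. Across the 15 samples of all 8 mixes, the signal of pirk ran over a 19.8-fold range and that of Rel over a 4.21-fold range. That of dl ran over a 3.37-fold range, against 1.57-fold for cact. Without S2/S2 replicate 1, a setting chosen after the values were seen, the ranges of pirk, Rel and dl across all mixes were 5.63-fold, 2.65-fold and 1.95-fold. All levels are linear signals as deposited, so they can be set side by side between samples but not between probe sets. In such bulk RNA, fewer cells that make a transcript and less of it per cell cannot be told apart.

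**Figure D1:**
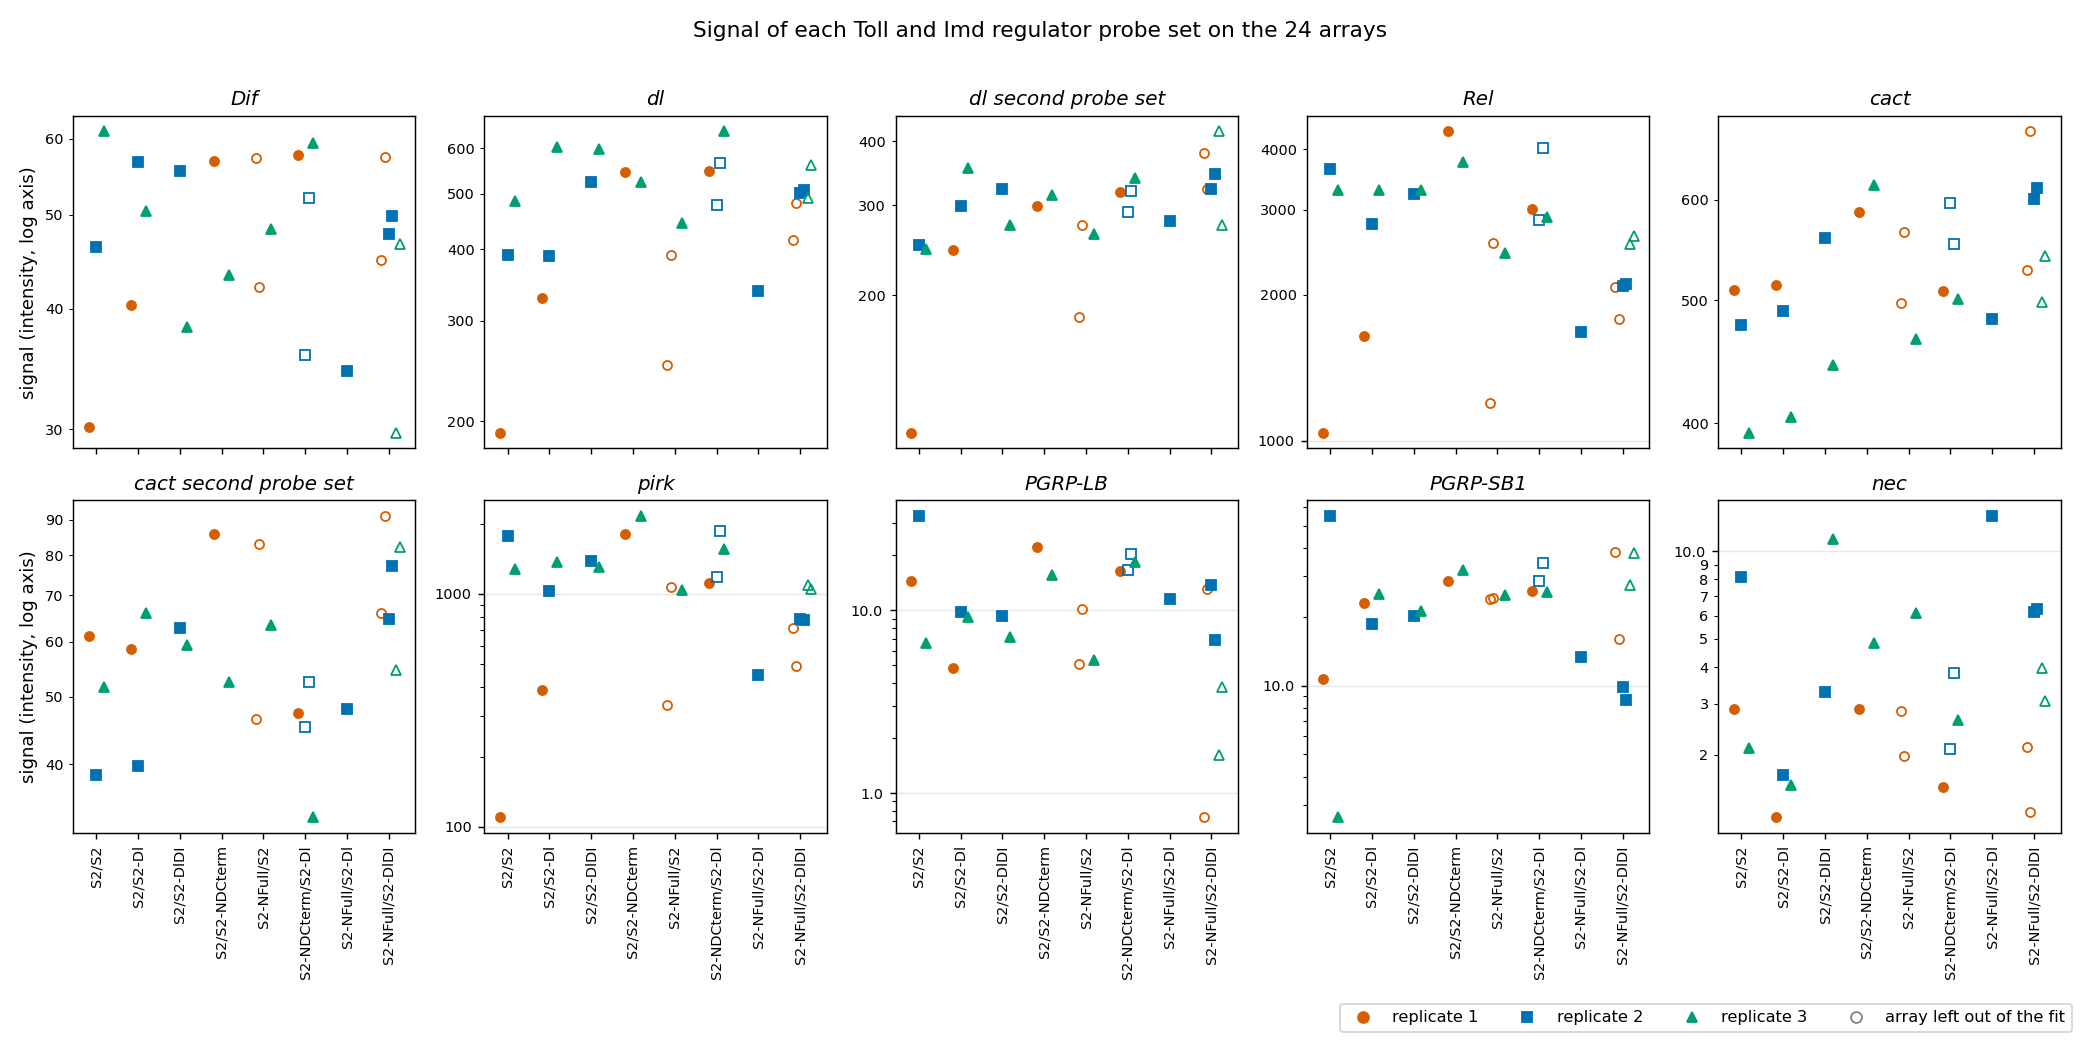
Signal of the 10 probe sets of the 8 regulators (vertical, intensity, log axis) in the 8 mixes (horizontal) on all 24 arrays, with filled symbols for arrays in the fit, hollow symbols for the 8 arrays left out and a symbol shape and colour per replicate number. The S2/S2 sample with pirk at 109.8 and Rel at 1036 is the lowest point of both panels.

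Rel encodes Relish, the NF-kappaB factor of the Imd pathway. Its signal (probe set 1627376_at) was 1036, 3635 and 3287 in S2/S2 replicates 1, 2 and 3. In S2/S2-Dl the same replicate numbers had 1647, 2805 and 3296. Replicate 1 was thus the lowest in both mixes, and the mixes overlapped. The samples of S2/S2-DlDI had 3227 and 3291, and those of S2/S2-NDCterm had 4357 and 3757, the highest of all mixes. S2-NDCterm/S2-Dl had 3007 and 2898, S2-NFull/S2 had 2447, S2-NFull/S2-DlDI had 2097 and S2-NFull/S2-Dl had 1678. Both samples of S2/S2-NDCterm lay above all 3 of S2/S2, and the lower of them was close to S2/S2 replicate 2. Here and for the genes below, groups of so few samples that do not overlap are only described. The share of all probe sets that separate in this way is not given. Against S2/S2, the log2 difference of S2/S2-NDCterm was 0.79 (95% confidence interval -0.09 to 1.68, limma adjusted p = 0.569).

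The gene pirk encodes the brake that Relish itself switches on. Its signal (probe set 1632964_at) was 109.8, 1782 and 1275 in S2/S2 replicates 1 to 3, and 386, 1030.2 and 1369 in S2/S2-Dl. Again replicate 1 lay far below the others of its mix, by over an order of magnitude in S2/S2, and the mixes overlapped. S2/S2-DlDI had 1389 and 1304, S2/S2-NDCterm 1811 and 2172, and S2-NDCterm/S2-Dl 1114 and 1555. S2-NFull/S2 had 1042, S2-NFull/S2-DlDI 776 and S2-NFull/S2-Dl 450.2. Replicate number 1 was not low everywhere: S2/S2-NDCterm replicate 1 held 1811, above every S2/S2 and S2/S2-Dl sample. The log2 difference between S2/S2-NDCterm and S2/S2 was 1.54 (95% confidence interval -0.17 to 3.24, adjusted p = 0.569). Without S2/S2 replicate 1 it was 0.39 for pirk and 0.23 for Rel, so most of both differences rested on that sample. Leaving out S2/S2 replicate 2 instead gave 2.23 for pirk and 1.11 for Rel, so single controls moved the values both ways.

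Rel and pirk followed each other from sample to sample. Over the 15 samples Pearson's r of their log2 values was 0.97 and Spearman's rho 0.92. Leaving out the samples farthest from the median, replicate 1 of S2/S2 and of S2/S2-Dl, gave r = 0.93, and leaving out every sample numbered 1 gave 0.95 (n = 11). The deviations from the mix means, in which the mixes themselves cancel, had r = 0.98. This does not set the pair apart, as the second probe set of dl had 0.98 with pirk and 0.96 with Rel. The largest deviations of Rel and pirk were those of S2/S2 replicate 1 (-1.14 and -2.29). These values describe arrays that share a scaling and, in part, a mix, and r was computed for 45 pairs of regulator probe sets. The 8 left-out arrays lay along the same course, for example the pair labelled S2-NFull/S2 replicate 1 with Rel at 1197 and pirk at 335 on one array and Rel at 2564 and pirk at 1072 on the other. Ordered by the mean of log2 values, S2/S2-NDCterm stood first for both genes, followed by S2/S2-DlDI and S2-NDCterm/S2-Dl, and S2-NFull/S2-Dl stood last. The mixes between them were ordered differently for the 2 genes. The S2/S2 mean, pulled down by replicate 1, was in place 6 for Rel and in place 7 for pirk.

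**Figure D2:**
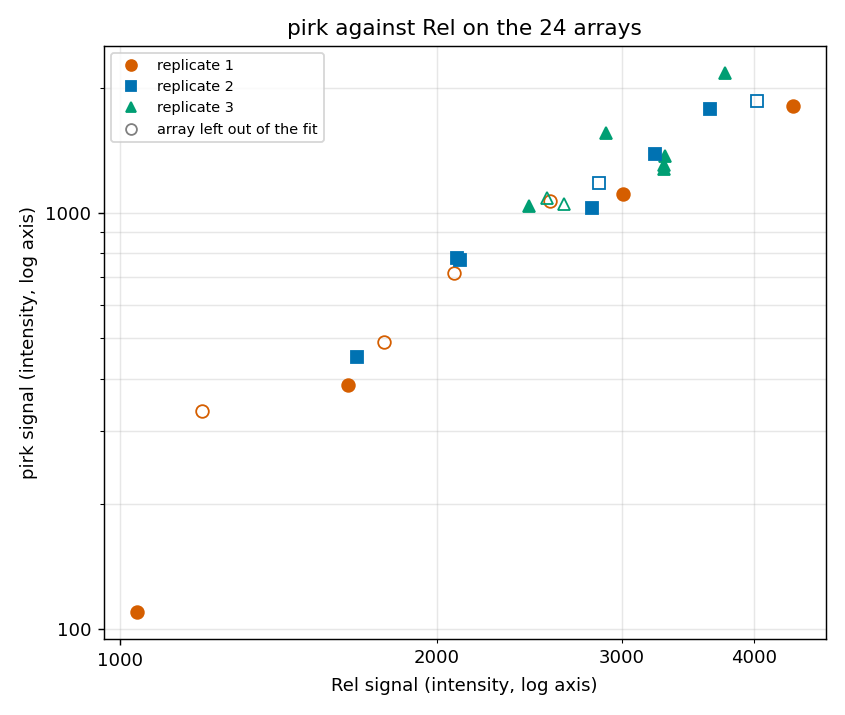
Signal of pirk (vertical) against that of Rel (horizontal), both as intensity on log axes, on the 24 arrays, with a symbol shape and colour per replicate number and hollow symbols for the arrays left out of the fit. The points climb from S2/S2 replicate 1 (Rel 1036, pirk 109.8) to the S2/S2-NDCterm samples (Rel 4357 and 3757, pirk 1811 and 2172).

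Measures of the arrays and of cell type were set beside this pattern. In S2/S2 replicate 1 the median over the array was 11.6, and the ratio of the Gapdh 3' to 5' control probe sets was 2.71, within the range of 1.46 to 3.13 over all arrays. The summed signal of the 12 plasmatocyte markers was 3474 in S2/S2 replicate 1, the lowest of all samples, 4685 in replicate 2 and 3823 in replicate 3. It was 4497 to 4721 in S2/S2-Dl, 5071 to 5603 in S2/S2-NDCterm, 4045 in S2-NFull/S2-Dl and 3747 in S2-NFull/S2-DlDI. The high sums in S2/S2-NDCterm were carried by Pxn, a plasmatocyte peroxidase, with a log2 difference of 1.57 from S2/S2 (limma adjusted p = 0.117), while NimC1 (-0.81), He (-0.80) and vkg (-0.45) had values of the other sign. Of the 12 markers, 7 had a positive value there, with a median of 0.04, where 37.5% of all probe sets were positive. In the same comparison the positive values were 1 of 4 crystal cell markers (median -0.25), 2 of 4 lamellocyte markers (0.09), 1 of 5 fat body markers (-0.13), 5 of 10 epidermis markers and 2 of 5 neuron markers (-0.12), and 0 were called in any of these lists. The part of these genes in the pattern was not tested. In S2/S2-Dl replicate 1, where Rel and pirk were low, the sum was 4555, between those of the other S2/S2-Dl samples.

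The gene dl encodes Dorsal, which Cactus holds back. Its main probe set (1639692_s_at) had signals of 191, 391 and 486 in S2/S2 and of 329, 388 and 602 in S2/S2-Dl, replicates 1 to 3. It read 525 and 599 in S2/S2-DlDI, and 544 and 523 in S2/S2-NDCterm, while S2-NDCterm/S2-Dl read 548 and 643. S2-NFull/S2 held 445, S2-NFull/S2-DlDI 504 and S2-NFull/S2-Dl 338. All samples of S2/S2-DlDI and S2/S2-NDCterm lay above all 3 of S2/S2, while S2/S2-Dl overlapped with S2/S2. The control with the lowest Rel and pirk, S2/S2 replicate 1, was also the lowest for dl.

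The second probe set of dl (1623415_at) gave 107, 250.5 and 246 in S2/S2 and 245, 299 and 355 in S2/S2-Dl. The other mixes lay between 263 in S2-NFull/S2 and 339 in a sample of S2-NDCterm/S2-Dl. Except for the S2/S2-Dl sample at 245, every sample of the other 7 mixes was above all S2/S2 samples, which is a description without a share of all probe sets beside it. The difference of S2/S2-Dl from S2/S2 was 0.57 ± 0.22 (log2, SE; 95% confidence interval 0.08 to 1.05, limma adjusted p = 0.315). With a term per replicate number added to the fit (a replicate block), its SE was 0.17 (limma adjusted p = 0.111). Between samples of the same number the difference was 0.99, 0.23 and 0.48, positive in all 3. Without S2/S2 replicate 1 the difference was 0.23, and the main probe set of dl gave 0.33 with all samples and -0.03 without that one.

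Both probe sets of dl correlated with each other (r = 0.86, n = 15) and with pirk (0.86 for the main and 0.77 for the second). Without the samples farthest from the median, replicate 1 of S2/S2 and of S2/S2-Dl, these fell to 0.56, 0.54 and 0.07. The link of the second dl probe set with pirk therefore rested on those samples, whereas that of Rel with pirk did not. With all samples in, the deviations from the mix means had r = 0.98 for both links.

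Dif encodes the factor that works beside Dorsal downstream of Toll, and lies near dl on the chromosome with 2 genes between them in the RefSeq annotation. Its signal (probe set 1633246_s_at) was low, with 30.2, 46.4 and 61.1 in S2/S2 and 40.4, 56.7 and 50.5 in S2/S2-Dl. S2/S2-DlDI gave 55.5 and 38.2, S2-NDCterm/S2-Dl 57.7 and 59.3, and S2/S2-NDCterm 56.8 and 43.3. The single samples read 48.4 in S2-NFull/S2, 48.9 in S2-NFull/S2-DlDI and 34.5 in S2-NFull/S2-Dl. The 3 S2/S2 samples spanned the values of every other mix. In the comparisons between mixes with 2 or more samples, the log2 difference of Dif was between 0.03 and 0.15, and the interval for S2/S2-Dl against S2/S2 was -0.34 to 0.49.

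The gene cact encodes the IkappaB protein that retains Dorsal and Dif. Its main probe set (1636926_s_at) was the steadiest of the members with a mean signal of 100 or more. It gave 509, 478 and 393 in S2/S2, 514, 490.1 and 404 in S2/S2-Dl, and 559 and 444 in S2/S2-DlDI. In these mixes the sample numbered 3 was the lowest, whereas Rel, pirk and dl were lowest in the sample numbered 1 of S2/S2 and S2/S2-Dl. S2/S2-NDCterm gave 587 and 616, above all S2/S2 samples, and S2-NDCterm/S2-Dl gave 508 and 501. S2-NFull/S2 gave 466, S2-NFull/S2-DlDI 607 and S2-NFull/S2-Dl 483. The difference between S2/S2-NDCterm and S2/S2 was 0.37 ± 0.14 (log2, SE; 95% confidence interval 0.07 to 0.68, limma adjusted p = 0.427). S2/S2-Dl differed from S2/S2 by 0.03, with an interval of -0.25 to 0.30.

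The second probe set of cact (1629899_at) had signals from 33.5 in a sample of S2-NDCterm/S2-Dl to 85.8 in a sample of S2/S2-NDCterm. It read 61.1, 38.6 and 51.7 in S2/S2, and 58.5, 39.7 and 66.1 in S2/S2-Dl. Its r with the main probe set was 0.25 over 15 samples, so the 2 probe sets of cact did not follow each other closely. For S2-NDCterm/S2-Dl compared with S2/S2-NDCterm it gave -0.47 (interval -0.98 to 0.04), where the main probe set gave -0.24 (interval -0.57 to 0.10).

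The remaining members were near the low end of the arrays. PGRP-LB (probe set 1630741_s_at), the amidase that damps the Imd pathway, was under a signal of 32 in 14 of 15 samples, with a median of 10.3. PGRP-SB1 (1636490_at), a secreted amidase of the same family, was under 32 in 14 of 15 samples as well, with a median of 22.8. Both were highest in S2/S2 replicate 2, at 33.0 and 55.3, which is the array with the highest median signal. The other S2/S2 samples had 14.4 and 6.61 for PGRP-LB and 10.7 and 2.65 for PGRP-SB1, so the controls spanned nearly the whole range. PGRP-LB gave 22.1 and 15.7 in S2/S2-NDCterm, with 16.3 and 18.5 in S2-NDCterm/S2-Dl, against at most 9.83 in the samples of S2/S2-Dl and S2/S2-DlDI. PGRP-SB1 averaged 30.3 in S2/S2-NDCterm and 25.8 in S2-NDCterm/S2-Dl, inside the span of the controls.

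The gene nec encodes a serpin of the blood that restrains the protease branch upstream of Toll. Its signal (probe set 1636653_at) was under 32 in 15 of 15 samples, with a median of 2.88 and a highest value of 13.3 in S2-NFull/S2-Dl. It was 1.22 to 1.71 in S2/S2-Dl and 2.12 to 8.16 in S2/S2, 2 groups that did not overlap but lay at the bottom of the signal range. The log2 difference there was -0.12 (interval -0.32 to 0.09, adjusted p = 0.686). No detection calls were used here, so it is not known whether these signals stand above background, and log2 differences at this level depend on the offset of 32.

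The spread between samples of a mix can be set against that of other probe sets. Among 5485 probe sets with a mean signal of 100 or more, the within-mix SD of log2(signal + 32) had a median of 0.17. It was 1.18 for pirk, the sixth largest, and 0.60 for Rel, which ranked 60 from the top. The probe sets of dl ranked 217 (SD 0.41) and 382 (SD 0.34), and cact, with 0.16, ranked 3007. For pirk, Rel and both probe sets of dl, the SD within mixes was larger than that of the 8 mix means (0.65, 0.39, 0.30 and 0.23) with all 15 samples. Much of this came from S2/S2 replicate 1. Without it, the SD within mixes was 0.57 for pirk and 0.31 for Rel, below the SD of mix means of 0.65 and 0.41. For the probe sets of dl it was 0.27 and 0.15, against SDs of mix means of 0.25 and 0.13. The ranks from the top then were 39 for pirk, 320 for Rel and 516 and 2494 for dl, with a median of 0.15 over the probe sets. The intervals of pirk were wide, reaching from -1.23 to 1.82 for S2/S2-Dl against S2/S2 with 3 samples each.

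**Figure D3:**
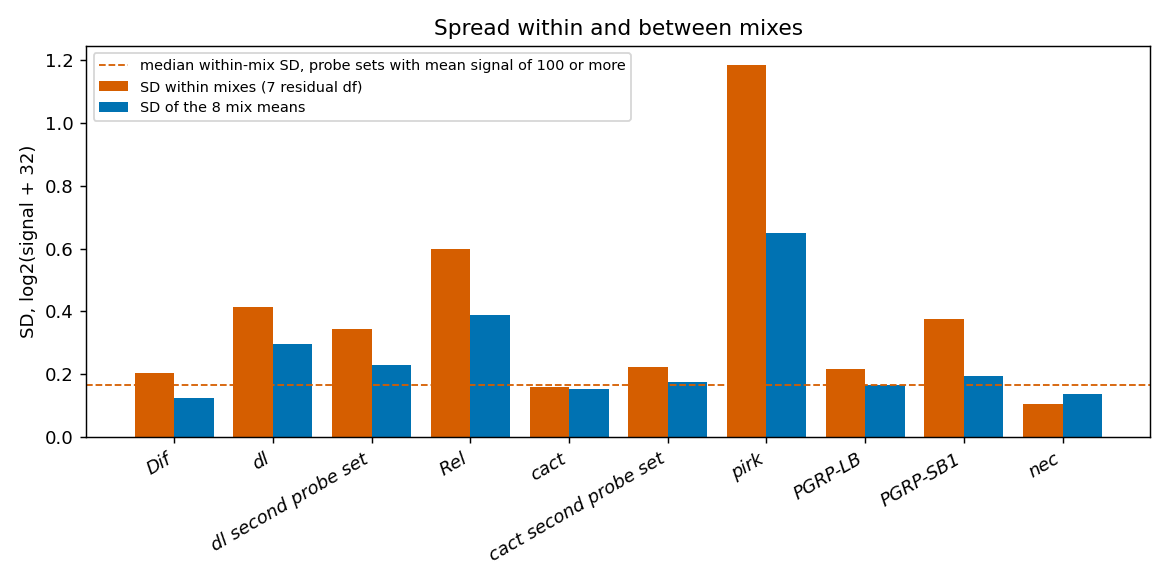
SD within mixes and SD of the 8 mix means (vertical, log2(signal + 32)) for the 10 probe sets, with a dashed line at the median within-mix SD of 0.17 over 5485 probe sets of mean signal 100 or more. The bar of pirk within mixes reaches 1.18 and that of Rel 0.60, both above their SD of mix means with all 15 samples but not without S2/S2 replicate 1, and cact lies at 0.16.

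The design first asks how plain S2 cells respond to Delta cells and to Delta without its intracellular domain. In S2/S2-Dl against S2/S2, 0 of 10 regulator probe sets were called by limma at an adjusted p below 0.05, where 1.31% of all probe sets were, and 1 of 10 had an unadjusted p under 0.05, where 12.2% of all did. With the replicate block, 0 of 10 were called against 2.88% of all. An unadjusted p under 0.05 was then met by 1 of 10, against 15.2%. In S2/S2-DlDI against S2/S2, 0 of 10 were called against 0.0746% of all, and 2 of 10 had an unadjusted p under 0.05 against 7.79%. The latter were the probe sets of dl, with log2 differences of 0.70 (interval 0.07 to 1.33, adjusted p = 0.607) and 0.57 (interval 0.03 to 1.11, adjusted p = 0.632). As both measure 1 gene, they are not separate results, and without S2/S2 replicate 1 they were 0.34 and 0.24. The value of pirk in this comparison was 0.99 with all samples and -0.16 without that one. Between the 2 ligand mixes, S2/S2-Dl against S2/S2-DlDI, 0 of 10 were called against 0.639% of all, and 0 of 10 had an unadjusted p under 0.05 against 8.32%.

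Without S2/S2 replicate 1, the value of pirk for S2/S2-Dl against S2/S2 went from 0.30 to -0.85 and that of Rel from 0.10 to -0.47. With the replicate 1 samples of both mixes left out, a setting chosen after the values were seen, they were -0.34 for pirk and -0.18 for Rel. Differences between samples of the same number were 1.56, -0.77 and 0.10 for pirk and 0.65, -0.37 and 0.00369 for Rel. The direction of the Delta comparison for these genes was thus not settled by these samples.

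The next comparisons set the Notch lines against the control without a ligand line. In S2/S2-NDCterm against S2/S2, 0 of 10 were called against 0.165% of all probe sets, and 3 of 10 had an unadjusted p under 0.05 against 9.47%. These were cact and both probe sets of dl (0.63, interval 0.00 to 1.26, and 0.61, interval 0.07 to 1.15). Without S2/S2 replicate 1 both probe sets of dl gave 0.27. These counts come from the fit without a replicate block. With the block, 5 of 10 had an unadjusted p under 0.05 against 12.6% of all probe sets, and 0 were called against 1.56% of all. The 5 were Rel, pirk, cact and both probe sets of dl, the last being 1 gene. Samples of the same number hardly deviated together in these mixes (residual correlations 0.0402 and 0.0337). No pairing is claimed for them, which limits the blocked values. In the same comparison 9 of 10 members had a positive value, with a median of 0.34 against -0.05 over all probe sets, of which 37.5% were positive. The count of positive members was also 9 of 10 for S2/S2-DlDI and for S2-NFull/S2, and 8 of 10 for S2/S2-Dl, each set against the same S2/S2 samples. Over all probe sets 35.5%, 36.8% and 37.9% were positive in these comparisons. The 10 probe sets stand for 8 genes, and PGRP-LB, PGRP-SB1 and nec lie near the low end of the signal. In S2-NFull/S2 against S2/S2, with 1 sample against 3, 0 of 10 were called against 0.181% of all, and 0 of 10 had an unadjusted p under 0.05 against 6.84%. All comparisons named so far except S2/S2-Dl against S2/S2-DlDI share the S2/S2 samples, so their values are not independent. S2/S2 replicate 1 lay below its mix mean for Rel, pirk and both probe sets of dl. For the probe sets of cact it lay above that mean (log2 deviations 0.15 and 0.18).

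The last comparisons add ligand cells to the Notch lines. In S2-NDCterm/S2-Dl compared with S2/S2-NDCterm, 0 of 10 were called against 0.49% of all, and 0 of 10 had an unadjusted p under 0.05 against 7.63%. There Rel gave -0.45 (interval -1.42 to 0.51) and pirk -0.58 (interval -2.45 to 1.29). In S2-NFull/S2-Dl compared with S2-NFull/S2 the shares of all probe sets were 0.293% called and 9.52% with an unadjusted p under 0.05. They were 0.0213% and 3.5% in S2-NFull/S2-DlDI against S2-NFull/S2, and 0.213% and 7.22% in S2-NFull/S2-Dl compared with S2-NFull/S2-DlDI. In each of these 3 comparisons of single samples, 0 of 10 regulator probe sets met either rule. For pirk the values were -1.16, -0.41 and -0.74, with intervals of -3.80 to 1.49, -3.05 to 2.23 and -3.39 to 1.90. With array 1 of each shared title used beside the samples of unshared titles, they were -0.38, 0.49 and -0.87, so the sign of the second turned. This setting counts as S2-NFull/S2-DlDI the arrays with Delta at 12295 and 11031, against their label. It also adds to S2-NFull/S2 an array with pirk at 335. A mix with 1 sample borrows its spread from the other mixes.

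Whether Delta cells acted differently beside a Notch line than beside plain S2 cells was tested as a difference of differences. Beside NDCterm, 0 of 10 were called against 0.0107% of all probe sets, and 0 of 10 had an unadjusted p under 0.05 against 3.46%. Beside NFull, 0 of 10 were called against 0.0213%, and 0 of 10 had an unadjusted p under 0.05 against 5.21%. The value of pirk was -0.88 (interval -3.29 to 1.54) beside NDCterm and -1.45 (interval -4.50 to 1.60) beside NFull. Without S2/S2 replicate 1 it was 0.27 beside NDCterm, with the other sign, and -0.30 beside NFull. That of cact was -0.27 (interval -0.70 to 0.17) and 0.02 (interval -0.53 to 0.57).

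**Figure D4:**
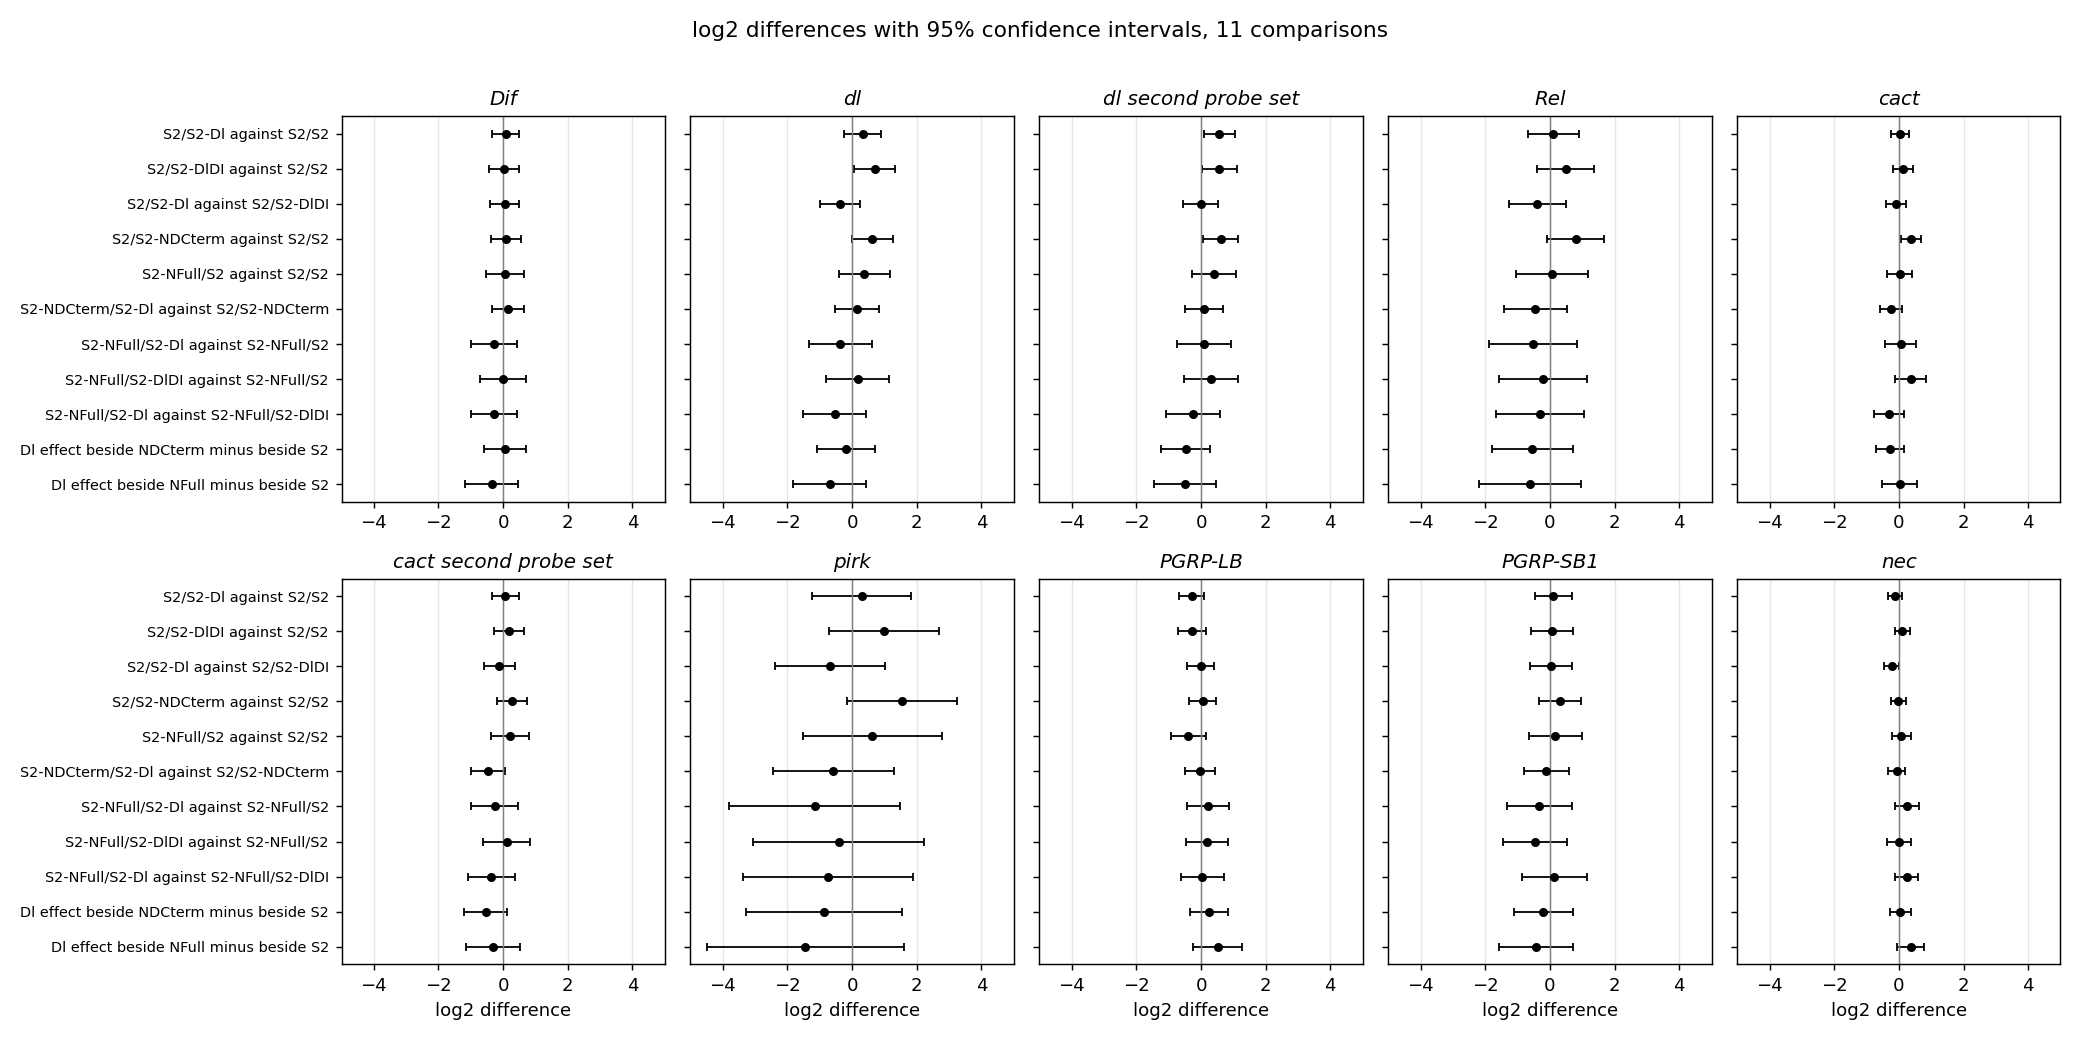
log2 differences (horizontal) of the 10 probe sets in the 11 comparisons (vertical), as points with 95% confidence intervals from limma. The intervals of pirk are the widest, such as -0.17 to 3.24 for S2/S2-NDCterm against S2/S2, and those of cact and nec are narrow.

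Of 67 other listed genes of both pathways, 52 were measured, and of 22 effector genes, 10 were. Among the 52, 1 was called higher and 0 lower in S2/S2-Dl against S2/S2, where 1.31% of all probe sets were called in either direction. In S2-NDCterm/S2-Dl compared with S2/S2-NDCterm it was 1 higher and 0 lower, against 0.49% of all. The other comparisons called 0 of them, with 1 to 13 at an unadjusted p under 0.05, where the share of all probe sets was 3.46 to 9.52%. The first was spz, which encodes the ligand of Toll. Its signal was 837, 1346 and 832 in S2/S2 and 1725, 1657 and 1650.2 in S2/S2-Dl, groups that did not overlap, and it rose by 0.76 ± 0.15 (log2, SE; limma adjusted p = 0.0285). The call held in 14 of 24 alternatives, with values of 0.63 to 0.98 and adjusted p from 0.000485 to 0.174. It was lost with quantile normalization, in a fit of the compared mixes only, without S2/S2 replicate 1 or 3, without any single S2/S2-Dl sample, and without either S2-NDCterm/S2-Dl sample.

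The second was Gprk2, which encodes a G protein-coupled receptor kinase. It read 226 and 219 in the samples of S2/S2-NDCterm, while S2-NDCterm/S2-Dl read 392 and 404, a rise of 0.76 ± 0.15 (log2, SE; limma adjusted p = 0.0359). The call held in 13 of 24 alternatives, with values of 0.57 to 0.82 and adjusted p from 0.0134 to 0.908. It was lost with quantile normalization, and with arrays of shared titles averaged or their array 2 used. It was also lost without any single sample of the compared mixes or of S2/S2-DlDI, and without S2/S2-Dl replicate 1 or 2. The shared-title settings bring in the S2-NDCterm/S2-Dl array with Delta at 13.9, against its label, which had Gprk2 at 260. The other left-out array of that title, with Delta at 11382, had Gprk2 at 400. Among the effectors DptB alone, which encodes an antibacterial peptide of the Imd pathway, was called in any comparison. It stood at 89.7 in the single S2-NFull/S2 sample against 5.56, 6.29 and 2.80 in S2/S2 (log2 difference 1.72 ± 0.25, limma adjusted p = 0.00911). This is 1 sample with a spread borrowed from the other mixes, and the S2/S2 signals lie far under the offset of 32 and are not known to be above background, so the size of the difference depends on the offset. The left-out arrays labelled S2-NFull/S2 replicate 1 had 20.6 and 18.4. Those labelled S2-NFull/S2-DlDI had 19.5 and 18.6 for replicate 1, but 149 and 73.4 for replicate 3. The S2-NFull/S2 sample used is numbered 3 as well. The call held in 20 of 24 alternatives, with values of 0.71 to 2.93 and adjusted p from 0.00211 to 0.325. It was lost in the 3 settings that brought the left-out arrays in and in a fit of the compared mixes only.

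The 22 measured genes of the Imd receptor and cytoplasm list had 17 positive values in S2/S2-NDCterm against S2/S2, with a median of 0.19 and 7 at an unadjusted p under 0.05, but 0 were called. Over all probe sets 37.5% were positive and 9.47% had such a p. Among the 7 were PGRP-LE (-0.76) and POSH (-0.49), which were lower. The same list had 17 positive values in S2/S2-DlDI against S2/S2 too, where 35.5% of all probe sets were positive. It also had 17 in S2-NFull/S2-DlDI against S2-NFull/S2, a comparison of single samples with 52.6% of all positive. In S2/S2-NDCterm against S2/S2, the 15 of the Toll receptor and cytoplasm list had 7 positive values and a median of -0.02. The 13 recognition and protease genes had 1 positive value there and a median of -0.26. The median over all probe sets in that comparison was -0.05.

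For each member, the genes with the highest r over the 15 samples were looked up among probe sets with a mean signal of 100 or more. For Rel they were pirk (0.97) and Gnpat (0.96), and for pirk they were Rel and Jra (0.97), which encodes the Jun transcription factor. For dl they were AnxB9 (0.94) and Pdk1 (0.93), and for its second probe set GstE3 and Arpc2 (both 0.95). For cact they were Charon (0.83) and heph (0.81), and for its second probe set alpha-Spec (0.84) and D19A (0.83). The highest values for Dif, PGRP-SB1 and nec were 0.78 with Rpn2, 0.83 with Hus1-like and 0.74 with gpp, and for PGRP-LB 0.87 with Trmt6. These are the top values among 5485 probe sets on samples that share mixes and scaling, so they rank likeness only.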

How the data were processed

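The authors' deposited table held 1 intensity per probe set on each of 24 arrays, linear and scaled to a common trimmed mean, as seen from its values. Its software was not given in the sources used here. No depth exists for arrays, and the number of samples limits the precision. Of 18952 probe sets, 183 controls were left out. Genes came from the platform annotation. Pairs of arrays with a shared title were averaged where the SD of their log2 difference was under the smallest between separate replicates of a mix (0.213). This was met by 1 pair (0.126), and the others were left out (0.339 to 0.383). Between separate replicates this SD reached 0.486. It was 0.397 to 0.486 between the S2/S2 samples, which were kept, and so larger than in the left-out pairs. In R 4.3.3, limma 3.58.1 fitted log2(signal + 32) over the 8 mixes with a trended prior (6.26 prior and 7 residual degrees of freedom), and p-values were adjusted by Benjamini-Hochberg over 18769 probe sets. The procedure was tested on simulated data. All probe sets of the 8 genes are reported, and of the other listed genes those called. Members and lists were chosen with earlier results of these data known. Replicate numbers were taken from the titles. Samples of the same number deviated together in S2/S2 and S2/S2-Dl (residual correlations 0.506, 0.272 and 0.377). The numbers were therefore read as pairing the samples of these mixes. For S2/S2-DlDI and S2/S2 the correlations were lower, at 0.202 and 0.285. Samples of the same number hardly deviated together in S2/S2-NDCterm and S2/S2 (0.0402 and 0.0337). The same held for S2-NDCterm/S2-Dl and S2/S2-NDCterm (0.0736), and no pairing is claimed in either case. Alternatives were a filter on low values, other offsets (8 and 128), quantile normalization, no trend, other uses of shared titles, the replicate block, the compared mixes only, and leaving out samples.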

Additional observations from a re-analysis of the deposited data

Results flagged for a closer look

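On 3 of the 8 arrays left out of the tests, regulator probe sets had signals above those of all 15 samples used. The second probe set of dl read 380 on array 1 labelled S2-NFull/S2-DlDI replicate 1 and 419 on array 1 labelled replicate 3, against at most 355 in the samples used and 250.5 in S2/S2. These are the arrays whose Delta signals of 12295 and 11031 went against their label. On array 2 labelled S2-NFull/S2-DlDI replicate 1, cact read 679 against at most 616 in the samples used, and the second probe set of cact read 91.2 against at most 85.8.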

How the results depend on the processing

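In all 259 pairs of a comparison and an alternative setting, 0 regulator probe sets were called, and the 2557 single values kept their side of the threshold, 114 of them with the other sign. The smallest adjusted p of a regulator over the 24 settings was 0.0999, in a fit of the compared mixes only. With the replicate block the smallest was 0.105, for the second probe set of dl in S2/S2-NDCterm against S2/S2 (0.71), with 0 calls in any comparison. Leaving out each replicate in turn gave 0 calls throughout, the lowest and highest count alike. In S2/S2-NDCterm against S2/S2, where no pairing by number is claimed, the blocked values were 1.92 for pirk (limma adjusted p = 0.106) and 0.41 for cact (0.116). The single S2-NFull samples could not be left out, the fit of the compared mixes only could not be made between single samples, and without arrays of shared titles the S2-NFull/S2-DlDI comparisons had no sample. Signal over background is unknown here, which limits PGRP-LB, PGRP-SB1 and nec most.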
